A study of Rattus norvegicus with 24 samples.

Results

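The regions described here are the long runs of probes on a rat CpG island array, stretches in which 20 or more probes follow each other closely. Autosomal probes were sorted by their start on the rn4 assembly, and neighbours at most 1000 bp apart were joined into a run. A run with 20 or more probes was taken as a long run. There were 180 long runs among 13856 autosomal runs (1.3%), and they held 4640 of the 89403 autosomal probes (5.19%). The rule uses probe positions only and no measured value. Whether each run is 1 island or several close islands was not tested, because no rn4 sequence or annotation was used, and so runs are given by position without gene names or bases.

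CpG islands are stretches of DNA rich in CpG dinucleotides that usually lie at gene starts and usually stay unmethylated in normal cells. Large islands often cover genes that guide development, where Polycomb proteins keep chromatin repressed without DNA methylation. In many cancers some islands gain methylation while DNA outside islands loses it. A methyl-CpG binding domain protein captures DNA fragments that carry methylated CpG, so enrichment over input rises with methylation and with the density of CpG in the fragment.

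DNA of 24 tissues of female Sprague-Dawley rats was hybridized to 1 array each. The groups were 3 normal mammary glands of rats that were not irradiated, 7 carcinomas of rats given 2 Gy of whole-body gamma rays at 3 weeks of age (IR-3W), 7 carcinomas after the same dose at 7 weeks (IR-7W), and 7 spontaneous carcinomas of rats that were not irradiated. All rats were later fed a diet rich in corn oil. IR-3W tumors 6 and 7 came from 1 rat, and so did IR-7W tumors 1 and 2. Cy5 held DNA captured by the methyl-CpG binding protein and Cy3 held uncaptured DNA of the same tissue. The measure is the log2 ratio of Cy5 over Cy3, centered on the median of each array, so that 0 is the median probe of that array and 1 unit is a doubling. A run's level is the mean over its probes. These are bulk tissues, in which methylation in more of the cells and a different make-up of cells cannot be told apart.

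Several facts of the arrays bear on the values below. Over the member probes, any pair of arrays correlated between 0.659 and 0.938. The Cy5 signal of the member probes was well above background for 89.5% ± 5.02 of them in the normal glands (SD, n = 3) and for 82.9% ± 6.41 in the tumors (SD, n = 21). IR-3W tumor 1 had stretched log2 ratios (SD over the member probes 1.96, against a median of 1.31 over the tumors), and normal gland 2 had the lowest level of the long runs among the 3 glands. All 3 glands were scanned on 1 day, together with only 1 tumor (spontaneous tumor 3), so that tissue and scan day cannot be told apart for the other 20 tumors.

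The long runs held a median of 24 probes, from 20 to 73, over a median span of 2901.5 bp, from 1332 to 7911 bp. The median gap between neighbouring probes was 45 bp, and 802 of 4460 neighbouring pairs (18%) overlapped, so the probes of a run read shared DNA fragments and are not independent. Just at the edge of the rule, 29 long runs had exactly 20 probes and 36 other runs had 19. All 20 autosomes held long runs, from 4 to 22 each. Close neighbours were rare among them, with 4 long runs lying within 50 kb of another.

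In the normal glands the long runs were the least enriched size class. The mean log2 ratio of the member probes was 0.003 ± 0.084 in normal glands (SD, n = 3), with single glands between -0.09 and 0.07. Probes in runs of 10 to 19, 5 to 9, 2 to 4 and 1 probe had gland means of 0.14, 0.27, 0.38 and 0.63. The level thus fell with each step up in run size, and the long runs were at the bottom of the order. In the tumors this order ended at the long runs. Their member probes had a mean of 0.257 ± 0.086 (SD, n = 21), with single tumors between 0.12 and 0.44, and runs of 10 to 19 probes had 0.253 ± 0.088. No tumor overlapped any gland in the mean of the member probes.

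**Figure D1:**
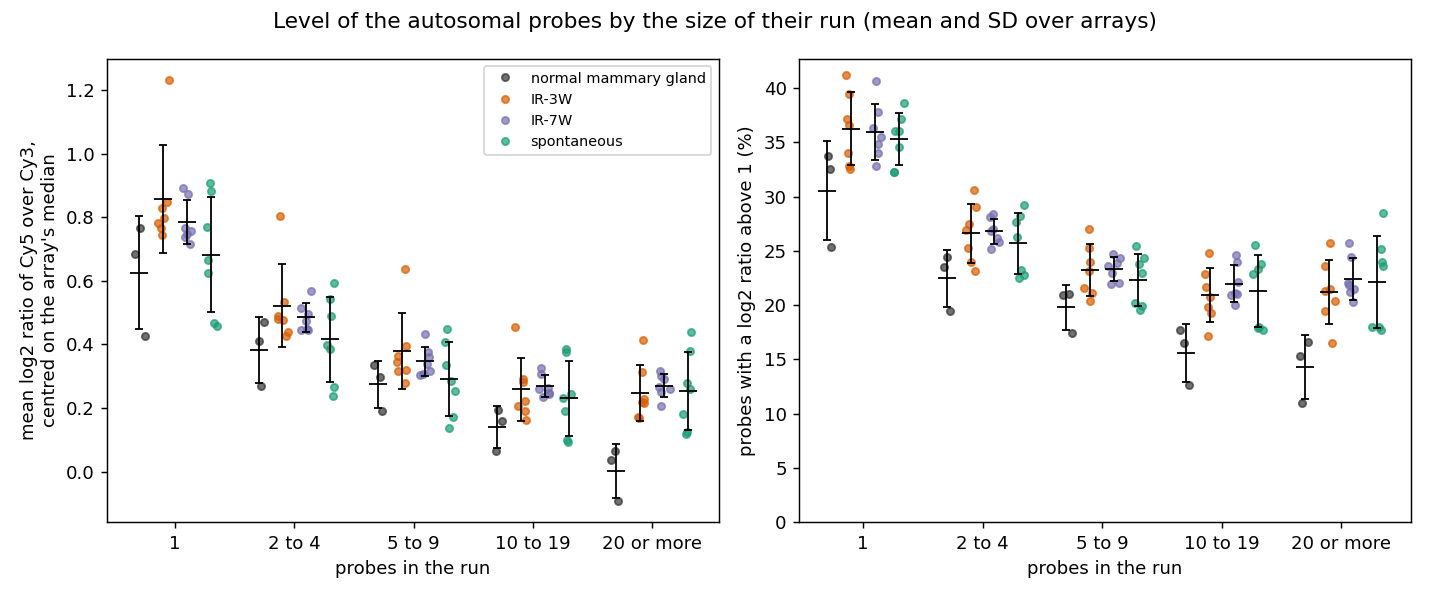
Each point is 1 array, drawn by group (normal glands, IR-3W, IR-7W, spontaneous) for autosomal probes in runs of 1, 2 to 4, 5 to 9, 10 to 19 and 20 or more probes. The left panel shows the mean log2 ratio and the right panel the percent of probes with a log2 ratio above 1, with black marks for the mean and SD over arrays. At 20 or more probes the glands had means of 0.003 and 14.3%, and the tumors 0.257 and 21.9%.

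The tumor minus gland difference was 0.25 in the long runs, against 0.11 in runs of 10 to 19 probes, 0.07 in runs of 5 to 9, 0.09 in runs of 2 to 4 and 0.15 at single probes. The mean over member probes was 0.247 ± 0.088 for the IR-3W tumors, 0.270 ± 0.036 for the IR-7W tumors and 0.255 ± 0.123 for the spontaneous tumors (SD, n = 7 each), so the tumor groups differed by less than their spread. Set against all other autosomal probes of the same array, the member probes rose by 0.17 from glands to tumors, where the SD of that contrast was 0.054 among tumors and 0.026 among glands. With normexp background correction this rise was 0.098. The share of member probes with a log2 ratio above 1, which are at least 2-fold enriched over the median probe, was 14.3% ± 2.95 in glands (SD, n = 3) and 21.9% ± 3.08 in tumors (SD, n = 21). This share was also higher in tumors for the other sizes, at 15.6% and 21.4% in runs of 10 to 19 probes, 19.8% and 23% in runs of 5 to 9, and 30.5% and 35.8% at single probes.

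The question of the main comparison is which long runs differed between carcinomas and normal glands. Across all autosomal runs with 3 or more probes, 24.1% of 12724 were called (limma with Benjamini-Hochberg adjustment over all runs, adjusted p under 0.05), and 69 of the 180 long runs (38.3%) were called. Among the long runs 57 were higher in tumors (31.7%, against 11% of all runs) and 12 were lower (6.67%, against 13.1% of all runs). On this scale more of the long runs were higher than lower, while over all runs more were lower (1661) than higher (1406). In runs of 10 to 19 probes 14.2% were higher and 15.7% lower, and in runs of 5 to 9 probes 10.2% and 13.1%. The median SE was 0.129 for long runs, 0.121 for runs of 10 to 19 probes, 0.138 for 5 to 9 and 0.173 for 3 to 4. The long runs were thus measured more precisely than the smaller runs that make up most of the 12724, and the part of this in their share of calls was not tested.

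The median difference was 0.17 over the long runs and 0.03 over all runs. A difference above 0 was found in 124 long runs (68.9%, against 54.5% of all runs). The called increases ranged from 0.17 to 1.35 with a median of 0.64, and the called decreases from -0.19 to -0.52 with a median of -0.28. In 24 long runs all 21 tumors lay above all glands (13.3%, against 3.03% of all runs), and in 2 all tumors lay below (1.11%, against 6.36%), together 14.4% of the long runs against 9.38% of all runs. The 2 were chr10:14258218-14261424, described below, and chr1:236768231-236771044 (25 probes), which differed by -0.19 without passing the test (limma adjusted p = 0.0591). Runs called higher had a median gland level of -0.30 and those called lower one of -0.15. When the 180 runs were ordered by gland level, the 60 lowest held 24 increases and 1 decrease, the middle 60 held 17 and 8, and the 60 highest held 16 and 3. The gland values also enter the difference, so this order is a description.

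**Figure D2:**
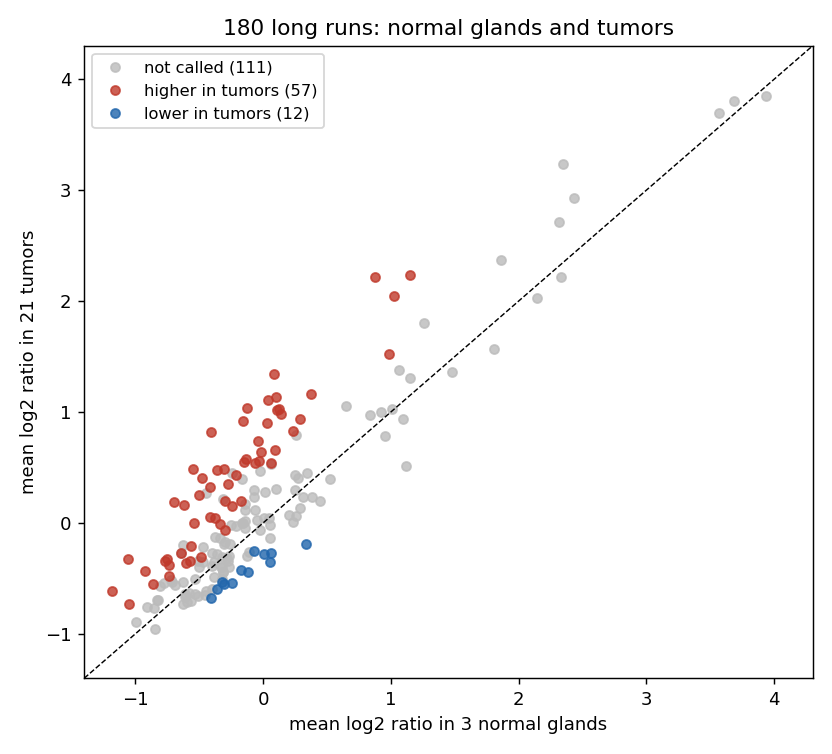
Each point is 1 of the 180 long runs, with its mean log2 ratio in the 3 normal glands on the horizontal axis and in the 21 tumors on the vertical axis, and the dashed line marks equal values. Of the runs, 57 were higher in tumors, 12 were lower and 111 were not called. Of the 57 increases 41 had a gland mean below 0. Over all 180 long runs the median gland mean was -0.23, and the 60 highest began at 0.01.

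The scan day and the choice of gland limit this comparison. On the scan day of the glands, the 1 tumor minus the 3 glands had a median of 0.15 over the long runs. The full comparison, which holds the same glands, had 0.17. On the slide that held both tissues, that tumor minus normal gland 2 had a median of 0.23. The fits with a block rest on these contrasts of 1 tumor. All values below for the scan day of the glands rest on it too and carry no SE. That tumor had the lowest share of member probes with Cy5 above background of all arrays (70.7%). With scan day as a block limma called 0 long runs (smallest adjusted p = 0.0524, against 0.0122 over all runs), and 29 had an unadjusted p under 0.05 (16.1%, against 15.2% of all runs). With slide as a block it called 0 (smallest adjusted p = 0.196), and 30 had an unadjusted p under 0.05 (16.7%, against 12.6%). With scan day blocked the share of long runs was therefore near that of all runs. Without normal gland 2, 22 long runs were higher (12.2%, against 3.51% of all runs) and 3 lower (1.67%, against 6%). Without normal gland 3, 31 were higher (17.2%, against 4.03%) and 2 lower (1.11%, against 7.19%). The split of directions depended on the probes kept and on the scale. Without dim probes (Cy3 not above background on at least 1 array) 53 long runs were higher and 21 lower. Over all runs 1272 were then higher and 2312 lower. With normexp background correction 27 were higher (15%, against 7.52% of all runs) and 18 lower (10%, against 15.9%), with a median of 0.03 over the long runs and -0.05 over all runs. With the rebuilt LogOdds, a score of methylated over unmethylated from a mixture fitted to each array, 93 were higher (51.7%, against 27.7% of all runs) and 0 lower (against 0.0393%). That scale shifted the runs upward as a whole, with a median of 2.12 over the long runs and 1.41 over all runs, and over all runs 3523 were higher and 5 lower, so that both had the same direction there. The rebuilt score is not the study's LogOdds, which compared probes of like melting temperature. Over all probes the study's score was shifted toward lower values in tumors, opposite to the rebuilt score. The rebuilt score therefore cannot stand in for it, its direction included.

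The largest increase was on chromosome 15, at chr15:66391773-66394493 (35 probes). Normal glands 1, 2 and 3 had run levels of 0.92, 0.49 and 1.20. The tumors ranged from 1.54 to 3.26 with a median of 2.27. Every tumor lay above every gland, and the tumor groups had nearly the same means (2.25 for IR-3W, 2.26 for IR-7W, 2.15 for the spontaneous group). The difference was 1.35 (SE 0.28, limma adjusted p = 0.00175). Of its 35 probes 28 were called higher and 0 lower. The gain spanned the run, with 1.20 at the 3 outermost probes of either end and 1.41 at the 6 middle probes. On the scan day of the glands the difference was 0.66.

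The next in size was on chromosome 8, at chr8:59105154-59109577 (27 probes). The glands had levels of 0.32, -0.13 and 0.07. The tumors ranged from 0.57 to 2.38 with a median of 1.21, again with no overlap. The difference was 1.26 (SE 0.25, limma adjusted p = 0.00109). In the gland means 4 of its 27 probes had a log2 ratio above 1, and in the tumor means 21 did. This run therefore went from mostly unenriched to mostly enriched, while the chromosome 15 run was already enriched at 21 of 35 probes in the glands and reached 29.

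Low gland levels marked the next pair. At chr10:16597007-16598876 (24 probes) the glands had -0.26, -0.53 and -0.43, and the tumors ranged from -0.17 to 1.55 with a median of 0.84. The difference was 1.22 (SE 0.26, limma adjusted p = 0.00172), and 19 probes were called higher. At chr5:135430122-135431826 (20 probes) the glands had 0.08, -0.31 and -0.16, and the tumors ranged from -0.03 to 2.31 with a median of 1.00. Both runs had wide tumor spreads (SD 0.45 and 0.49). In the first no tumor overlapped the glands and in the second 20 of 21 tumors lay above all glands, with a difference of 1.16 (SE 0.28, limma adjusted p = 0.0045).

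The run at chr6:69216731-69219561 (20 probes) was enriched in glands 1 and 3, at 1.38 and 1.54, but less in gland 2, at 0.51. The tumors ranged from 1.45 to 2.87 with a median of 2.24. The difference was 1.09 (SE 0.22, limma adjusted p = 0.0015), and it was 0.77 without normal gland 2 (adjusted p = 0.0506) and 0.30 on the scan day of the glands. It is the increase among the 8 largest in which a single gland weighed most. At chr10:18099723-18103785 (29 probes) the glands had 0.004, -0.35 and -0.13 and the tumors 0.07 to 1.78, a difference of 1.07 (SE 0.24, limma adjusted p = 0.00273) with 21 probes called higher, and of 0.39 on the scan day of the glands. At chr1:266003637-266007111 (21 probes) the glands had 0.21, -0.23 and 0.14 and the tumors 0.25 to 2.16, a difference of 1.07 (SE 0.26, limma adjusted p = 0.0048, and 0.0612 without normal gland 2), and of 0.62 on the scan day of the glands. Neither run had a tumor that overlapped the glands.

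At chr16:82018532-82020363 (21 probes) the glands were close together, at -0.51, -0.62 and -0.51, and the tumors ranged from -0.29 to 1.17. The difference was 1.04 (SE 0.22, limma adjusted p = 0.00216). IR-3W tumors had a lower mean here (0.13) than IR-7W (0.68) and spontaneous tumors (0.65). On average the run stayed sparse in enriched probes, with 1 of 21 above a log2 ratio of 1 in the glands and 1 in the tumors.

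**Figure D3:**
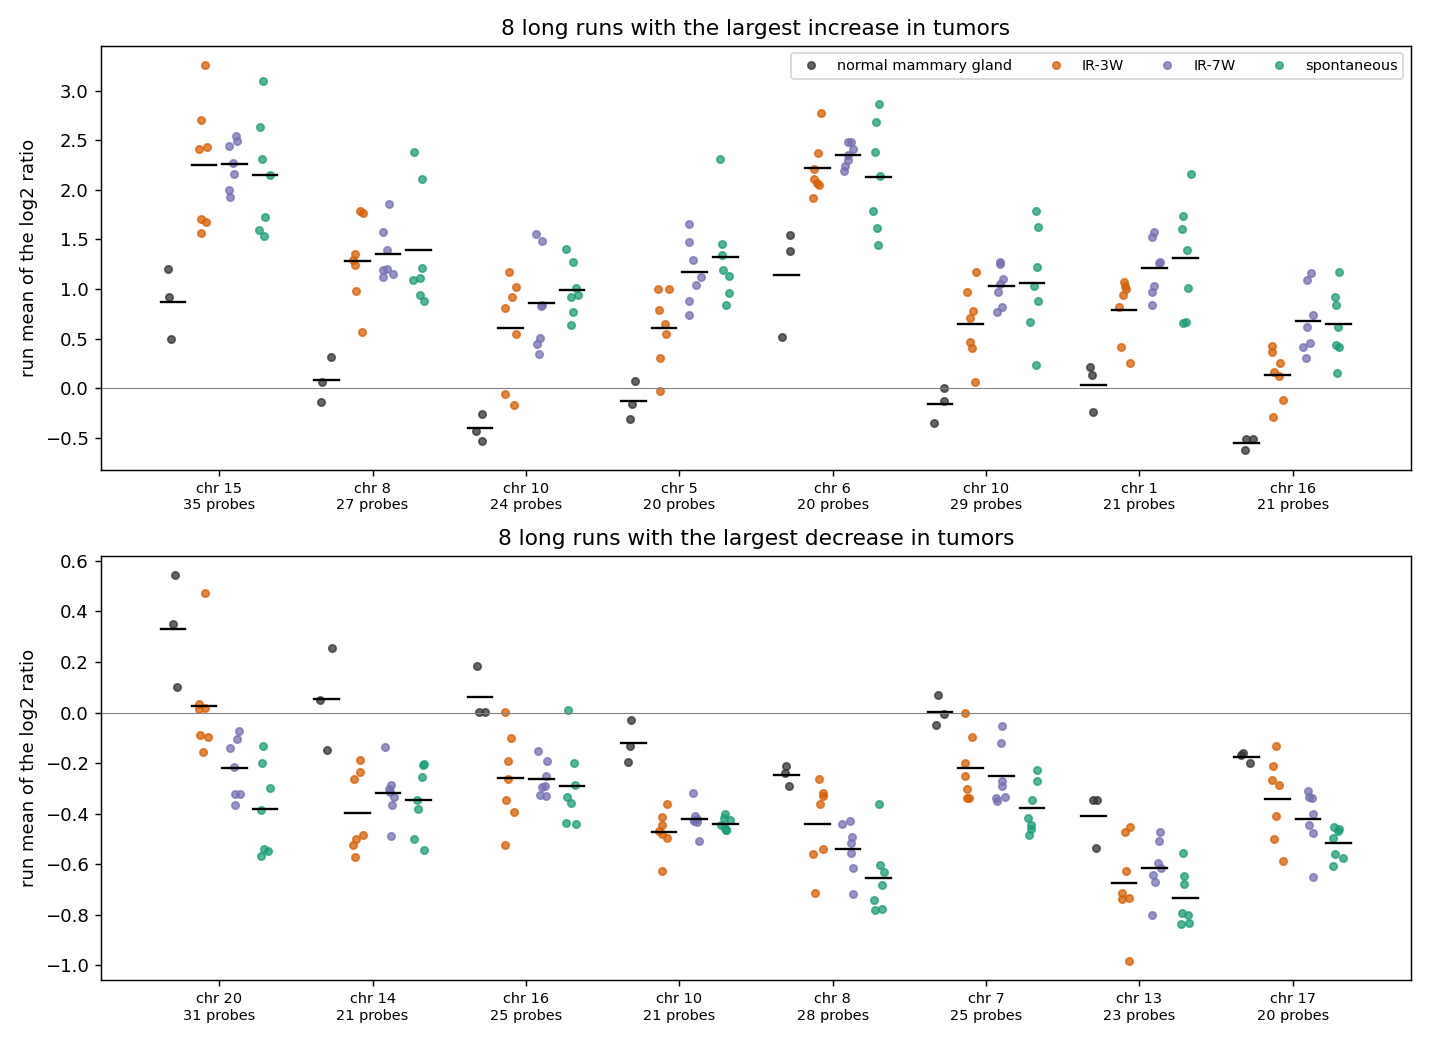
Run means of the log2 ratio for each of the 24 arrays, by group, at the 8 long runs with the largest increase (top) and the 8 with the largest decrease (bottom) among those called. Each point is an array and each black bar a group mean. The runs are named by chromosome and number of probes, and the increases reached 1.35 while the decreases reached -0.52.

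Decreases were smaller. The largest called decrease was at chr20:46260737-46264714 (31 probes). The glands had levels of 0.35, 0.10 and 0.54. IR-3W tumors ranged from -0.16 to 0.47 with a median of 0.01, IR-7W tumors from -0.37 to -0.07 with a median of -0.21, and spontaneous tumors from -0.57 to -0.13 with a median of -0.38. All but 1 tumor lay below all glands, and that tumor was IR-3W tumor 1. The difference was -0.52 (SE 0.14, limma adjusted p = 0.0109), with an adjusted p of 0.116 without normal gland 3. Of its 31 probes 7 were called lower and 0 higher.

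The run with the smallest adjusted p of all 180 was also a decrease, at chr10:14258218-14261424 (21 probes). The glands had -0.20, -0.03 and -0.13. The tumors ranged from -0.63 to -0.32 with a median of -0.43, and their SD of 0.060 was the smallest of any long run. All 21 tumors lay below all glands, with a difference of -0.32 (SE 0.055, limma adjusted p = 0.000391). It was -0.30 on the scan day of the glands. With the rebuilt LogOdds the sign turned (0.36 higher in tumors, adjusted p = 0.763).

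The other 6 of the 8 largest decreases lay between -0.41 and -0.25. At chr14:62270311-62272169 (21 probes) the glands had -0.15, 0.26 and 0.05 and the tumors -0.57 to -0.13, a difference of -0.41 (SE 0.092, limma adjusted p = 0.003, and 0.0713 without normal gland 2). Here 10 probes were called lower and 2 higher. At chr16:82793964-82797709 (25 probes) the difference was -0.33, with 10 probes lower and 2 higher, and this run lost both of the probes that exceeded 1 in the glands. The remaining 4, at chr8:65482469-65487471, chr7:32607462-32610248, chr13:107222924-107225909 and chr17:61088549-61090573, differed by -0.30, -0.29, -0.27 and -0.25, and in each of them 17 to 20 tumors lay below all glands. Their adjusted p values were 0.0311, 0.0159, 0.0337 and 0.0371, and rose to as much as 0.117, 0.108, 0.179 and 0.142 with 1 gland left out. The call was lost without any 1 of the 3 glands at the chromosome 8 and 17 runs, without gland 2 or gland 3 at the chromosome 7 and 13 runs, and without gland 3 at the chromosome 16 run (adjusted p = 0.0991). On the scan day of the glands the differences were -0.12 at the chromosome 8 run, -0.15 at the chromosome 13 run and -0.26 at the chromosome 14 run. Spontaneous tumor 3, the tumor of that day, stood apart from its group at the chromosome 8 run (-0.36, group median -0.68). With the rebuilt LogOdds, on which all runs shifted upward by a median of 1.41, the difference was above 0 in 6 of these 8 runs, all but the chromosome 20 and chromosome 14 runs. Increases and decreases alike are given relative to the median probe of the array. The centring removes any shift of that probe between glands and tumors. The study reported a general loss of methylation over the CpG island probes of these tumors. An increase here is therefore not shown to be an absolute gain.

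The level of input DNA did not differ detectably. In Cy3, which follows DNA copy number and hybridization and not methylation, limma called 0 of the 180 long runs and 0 of all 12724 runs (smallest adjusted p = 0.397). At an unadjusted p under 0.05 there were 3 long runs (1.67%, against 3.95% of all runs), at chr1:247219620-247222242, chr9:85289360-85293055 and chr20:8199117-8202405, with Cy3 differences of 0.20, -0.12 and 0.14. The largest absolute Cy3 difference among the 69 called runs was 0.20.

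Single probes inside the long runs were called in both directions. Among the 4640 member probes 1218 were called (26.2%, against 22.8% of all 93024 probes), with 817 higher (17.6%, against 10.5%) and 401 lower (8.64%, against 12.3%). The 1218 became 486 without normal gland 2, 498 without normal gland 3, 31 with scan day as a block and 0 with slide as a block, and the counts of probes per run rest on the same test. At least 1 probe was called higher in 153 runs (85%, against 57% of runs of 10 to 19 probes and 36.9% of all runs) and at least 1 lower in 104 (57.8%, against 56.9% and 41.9%). Both directions were found in 85 runs (47.2%, against 28.6% and 13.8%) and neither in 8 (4.44%, against 14.8% and 35.1%), shares that also depend on the number of probes in a run. At least 50% of the probes were called higher in 15 long runs (8.33%, against 5.19% of all runs and 5.4% of runs of 10 to 19 probes) and lower in 0 (against 6.85% and 4.16%). Of the 57 runs called higher, 43 had no probe called lower. Of the 12 called lower, 5 had no probe called higher.

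Enrichment was uneven within a run. In the gland means 70 long runs had no probe above a log2 ratio of 1, 106 had some and 4 had all of their probes above it (chr5:58917818-58919814, chr6:132294171-132296380, chr9:32921179-32923334 and chr9:74761784-74763313). In the tumor means these counts were 56, 119 and 5, and the run that joined was chr3:3748545-3751555. From glands to tumors 25 runs gained their first enriched probe and 11 lost all of theirs. Runs with at least 50% of their probes enriched went from 17 to 23. These counts are not set against smaller runs, in which the share of probes above 1 also rose in tumors. The median SD over the probes of a run was 0.71 in the gland means, from 0.17 to 1.91, which is larger than the median difference between tumors and glands among the called increases.

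**Figure D4:**
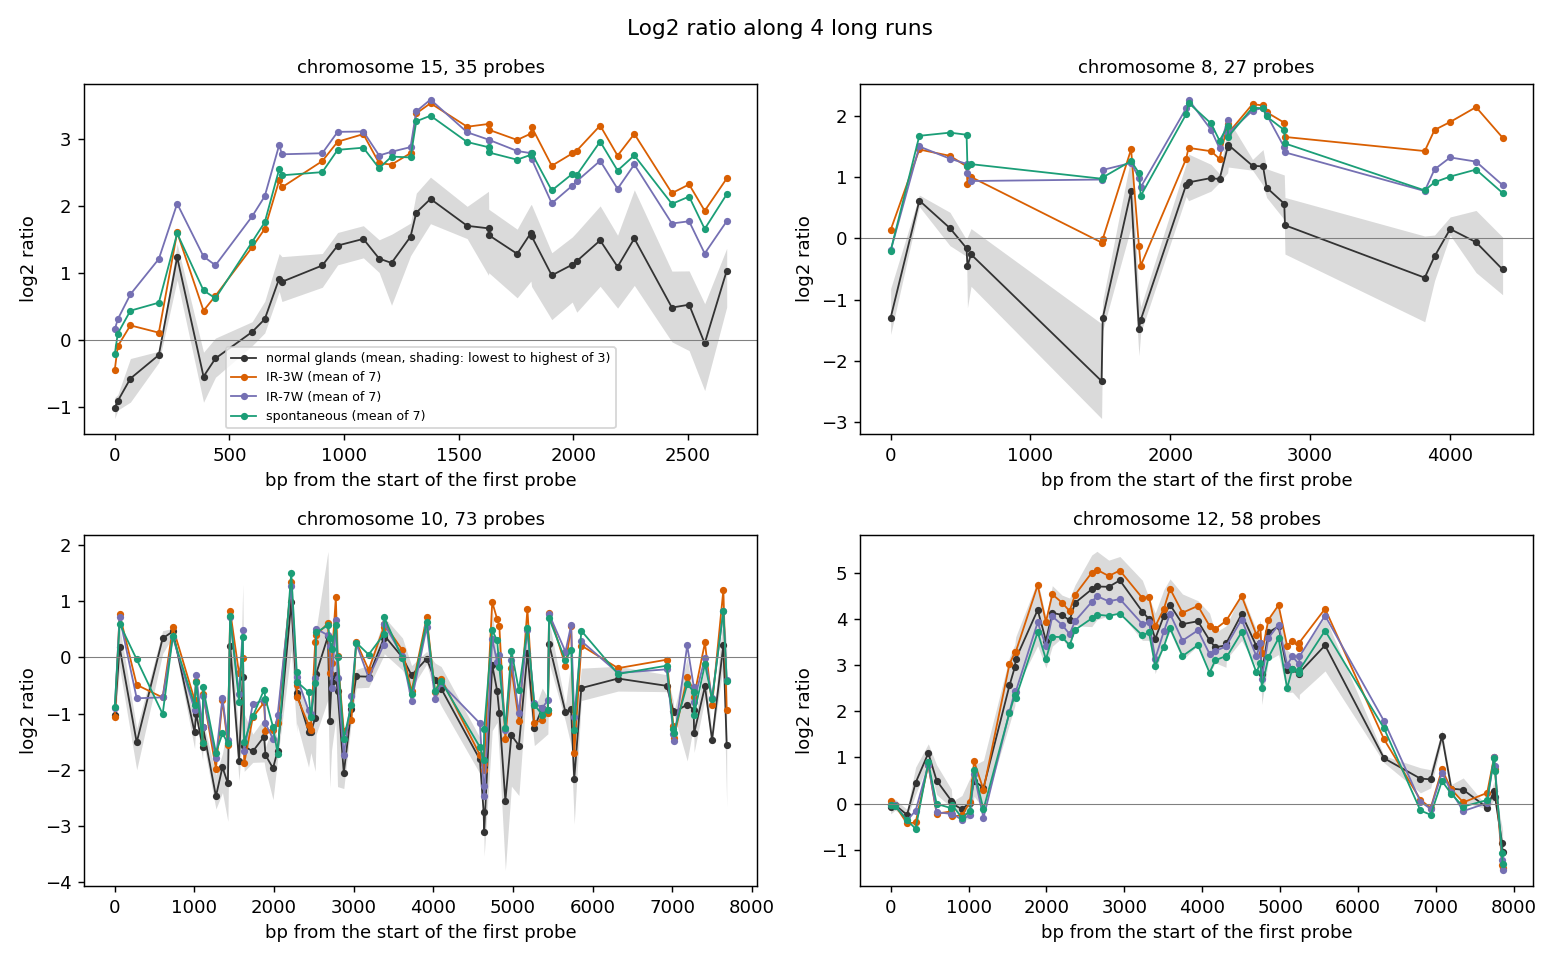
Log2 ratio of each probe along 4 long runs, against the distance in bp from the start of the first probe: the chromosome 15 and chromosome 8 runs with the largest increases (differences of 1.35 and 1.26) and the runs with the most probes on chromosome 10 (73) and chromosome 12 (58). The black line is the mean of 3 glands with shading from the lowest to the highest gland, and the colored lines are the means of 7 tumors. In the upper runs the tumor lines lie above the glands nearly throughout, while on chromosome 12 all groups share 1 enriched block with unenriched ends.

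The run with the most probes, at chr10:109652173-109659917 (73 probes over 7745 bp), had very low levels in the glands, at -0.69, -0.85 and -1.23. The tumors ranged from -0.74 to -0.17, and 20 of 21 lay above all glands. The difference was 0.49 (SE 0.11, limma adjusted p = 0.00276, and 0.0737 without normal gland 3), and 0.76 on the scan day of the glands. That last value rests on spontaneous tumor 3, which stood apart from its group here (-0.17, group median -0.44). The run stayed unenriched, with 0 of 73 probes above 1 in the glands and 1 in the tumors. Its Cy5 signal was above background for only 43.8% of the probes on the array with the lowest share, so its level is a value near the floor of the assay.

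The second in size, at chr12:46721844-46729754 (58 probes over 7911 bp), was the opposite case. In every group mean 36 or 37 of its 58 probes were above 1. The 6 middle probes had a mean of 3.97 in the glands and 3.80 in the tumors, while the 6 outermost had -0.35 and -0.38. This was the strongest contrast of edge and centre among the long runs in the glands, and tumors did not pass the test for a difference from glands in the run mean (2.22 against 2.33, limma adjusted p = 0.865). The other 3 of the 5 runs with the most probes included 2 increases. At chr19:19275700-19280416 (45 probes) the glands had 0.19, -0.10 and 0.22 and the tumors 0.41 to 1.82, a difference of 1.03 (SE 0.22, limma adjusted p = 0.00175) that was 0.60 on the scan day of the glands, and the number of probes above 1 went from 4 to 29. At chr14:83215953-83221176 (46 probes) the difference was 0.79 (SE 0.21, limma adjusted p = 0.0075, but 0.0538 and 0.0527 without normal gland 2 or 3), or 0.52 on the scan day of the glands, and the number went from 0 to 10. At chr19:15747712-15753035 (48 probes) the difference was -0.08 (limma adjusted p = 0.781), with 5 probes called higher and 7 lower.

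Among the 5 highest runs in the glands, limma called 0 between tumors and glands, and most or all of their probes were enriched in every group. At chr6:132294171-132296380 (21 probes) the glands had 4.01, 3.39 and 4.41 and the tumors 2.68 to 6.51, with all 21 probes above 1 in every group. At chr5:58917818-58919814 (23 probes) and chr9:32921179-32923334 (25 probes) the gland means were 3.69 and 3.57 and the tumor means 3.80 and 3.70. These 3 runs had Cy5 above background at 100% of their probes on every array. IR-3W tumor 1 was the highest array at each of them (6.51, 6.11 and 6.04). At chr19:35083781-35086696 and chr3:3748545-3751555 the differences were 0.50 and 0.89, with SEs of 0.34 and 0.36 (limma adjusted p = 0.317 and 0.0709). On the scan day of the glands they were 0.02 and 1.14.

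At the other end, the 3 lowest runs in the glands were all called higher. At chr6:107439091-107441266 (20 probes) the glands had -1.01, -1.15 and -1.39 and the tumors -1.03 to -0.30, a difference of 0.56 (SE 0.13, limma adjusted p = 0.00316, and 0.0525 without normal gland 3). At chr2:186529675-186533959 (35 probes) the glands had -0.84, -1.16 and -1.17 and the tumors -0.89 to 0.10, a difference of 0.73 (SE 0.13, limma adjusted p = 0.000546) with 17 probes called higher. At chr1:78672284-78674278 (24 probes) the difference was 0.32 (SE 0.097, limma adjusted p = 0.0205, but 0.077 and 0.131 without normal gland 2 or 3), and 0.56 on the scan day of the glands. They were chosen for low gland values, which favors a difference above 0, and on their dimmest arrays only 25%, 82.9% and 50% of their probes had Cy5 above background.

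The gain was not even along the runs. Within 250 bp of a run's end the mean was -0.005 ± 0.126 in glands (SD, n = 3) and 0.408 ± 0.103 in tumors (SD, n = 21), with no overlap. Between 250 and 500 bp from an end the means were 0.143 and 0.353, between 500 and 1000 bp -0.021 and 0.139, and between 1000 and 1500 bp -0.087 and 0.112. The tumor minus gland gap was widest within 250 bp of the ends and narrower up to 1500 bp. Beyond 1500 bp the means were 0.041 and 0.389 over 487 probes, so the gap was wide again there. Only runs longer than the median span reach so far from an end, and the shortest runs do not reach 1000 bp either. The bins thus hold different sets of runs and do not give an order along a run.

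Edge and centre were compared within each run, with the 3 outermost probes at either end against the 6 middle probes. In runs of 12 or more probes 32.1% of 1176 changed this contrast between glands and tumors (limma adjusted p under 0.05), and 53 long runs did (29.4%). The edges rose against the centre in 35 long runs (19.4%, against 27.7%) and fell in 18 (10%, against 4.42%). Of the 53, the run mean was not called in 35. Leaving out normal gland 2 gave 33 changed contrasts (18.3%, against 20.9%), and leaving out normal gland 3 gave 12 (6.67%, against 9.52%). The contrast was not fitted with scan day or slide as a block.

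The strongest rise of edges was at chr1:87624575-87627645 (21 probes), named here after its values were seen. Its edges went from -0.51 in the glands to 0.44 in the tumors while its centre went from -0.02 to -0.53, a change of 1.46 in the contrast (SE 0.27, limma adjusted p = 0.000364). The strongest fall was at chr17:745660-749605 (28 probes), chosen in the same way, where the edges went from 1.03 to 0.61 and the centre from -0.91 to -0.17 (change -1.16, SE 0.16, limma adjusted p = 3.5e-05). In this run the contrast between edge and centre became smaller in tumors. The runs with the highest edges over centre in the glands were chr16:69406502-69409834 and chr1:139134092-139138507. Their contrasts were 2.96 and 2.21 in the glands and 2.04 and 1.57 in the tumors. They were chosen for high gland values, which favors a lower contrast in tumors. Neither change passed without normal gland 1 (limma adjusted p = 0.154 and 0.151) or 3 (0.215 and 0.214). The chromosome 1 run did not pass without normal gland 2 either (limma adjusted p = 0.0745).

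Long runs near each other were few. On chromosome 1 the runs at chr1:191110313-191113633 and chr1:191122408-191125988 differed by 0.53 and 0.63 (limma adjusted p = 0.0537 and 0.00199), and on chromosome 7 those at chr7:137557538-137561117 and chr7:137572825-137576908 differed by 0.37 and 0.64 (limma adjusted p = 0.0109 and 0.0245). The difference was above 0 at all 4 and 3 passed the threshold. Both chromosome 7 runs did not pass without normal gland 2 (limma adjusted p = 0.0976 and 0.184), nor the second without normal gland 3 (0.104). On the scan day of the glands the differences were 0.22, 0.68, 0.31 and 0.52 in the same order.

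The next question is whether the long runs differed between tumors of rats irradiated at 7 and at 3 weeks. The study described the IR-7W tumors as mostly estrogen receptor positive and the IR-3W tumors as receptor negative. Age at irradiation and receptor status therefore cannot be told apart here. Between IR-7W and IR-3W limma called 0 of the 180 long runs and 0% of all runs after adjustment (smallest adjusted p of a long run 0.19). At an unadjusted p under 0.05 there were 30 long runs (16.7%, against 8.2% of all runs), with 24 higher in IR-7W (13.3%, against 5.01%) and 6 lower (3.33%, against 3.18%). With scan day as a block 0 were called, and 27 had an unadjusted p under 0.05 (15%, against 7.44% of all runs). With the rebuilt LogOdds 4 long runs were called (2.22%, against 1.01% of all runs), all higher in IR-7W: chr5:135430122-135431826, chr8:86700347-86702611, chr10:50148658-50153464 and chr16:82018532-82020363 (adjusted p = 0.0388, 0.0353, 0.0353 and 0.047).

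The 3 long runs with the smallest p in either direction show the size of these differences. At chr8:86700347-86702611 (21 probes) the IR-3W tumors ranged from -0.13 to 0.41 with a median of 0.23, and the IR-7W tumors from 0.35 to 1.39 with a median of 0.75. The groups overlapped only slightly, with a difference of 0.67 (SE 0.15, limma adjusted p = 0.19). Glands were at -0.19 to -0.10 and spontaneous tumors had a mean of 0.57, so the IR-3W tumors were the closest to the glands. At chr10:50148658-50153464 (34 probes) the IR-3W tumors ranged from -0.24 to 0.44 with a median of -0.06, and the IR-7W tumors from 0.11 to 1.13 with a median of 0.73, a difference of 0.70 (SE 0.16, limma adjusted p = 0.19). In this run 3 of 34 probes were above 1 in the IR-3W mean, 15 in IR-7W and 13 in spontaneous tumors, against 1 in the glands.

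The third, at chr6:132383114-132385768 (22 probes), had a median of -0.51 in IR-3W and -0.16 in IR-7W (difference 0.40, SE 0.091, limma adjusted p = 0.19). Of the runs lower in IR-7W, chr15:50474343-50480329 (38 probes) had means of 1.24 in IR-3W and 0.86 in IR-7W, chr8:113882585-113884959 (24 probes) had 1.60 and 1.17, and chr6:10201928-10204603 (24 probes) had 0.24 and -0.19. In the last of these IR-3W tumors ranged from -0.21 to 1.01 and IR-7W tumors from -0.28 to -0.10.

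**Figure D5:**
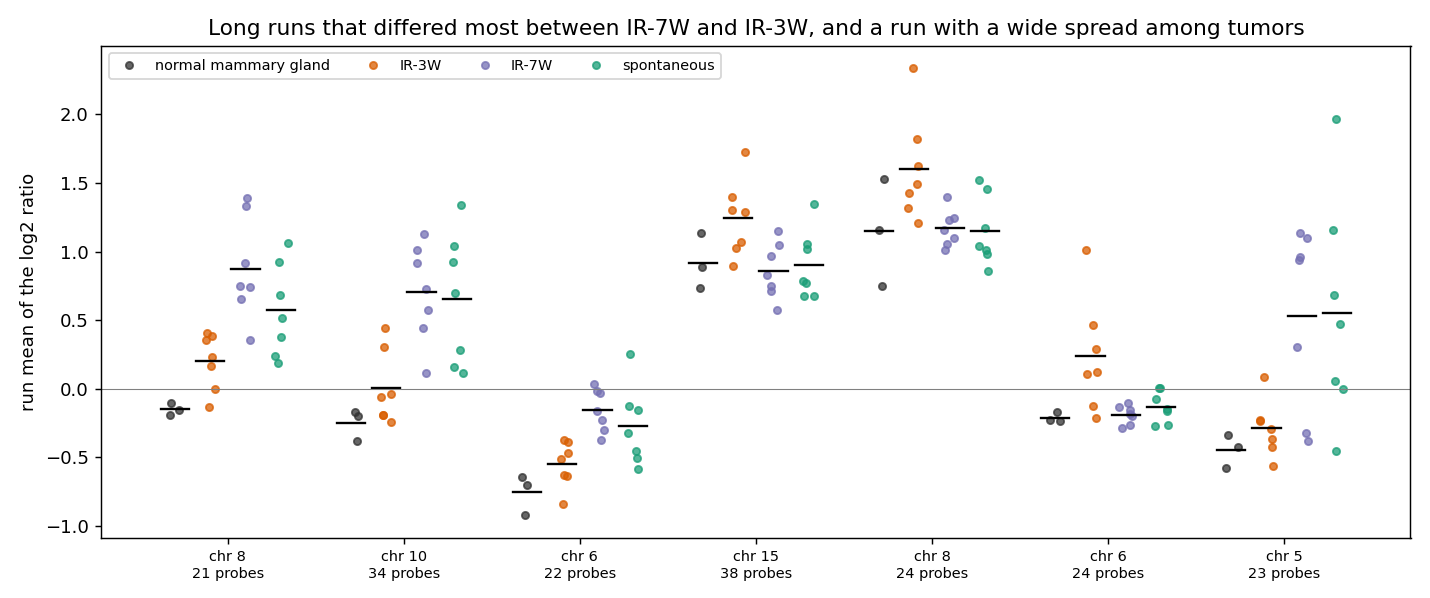
Run means of the log2 ratio per array and group at the 6 long runs with the smallest p between IR-7W and IR-3W (the first 3 higher and the next 3 lower in IR-7W), followed by a run on chromosome 5 with a wide spread among tumors (SD 0.71). Points are arrays and black bars group means. None of these runs passed the adjusted threshold between the tumor groups.

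Between IR-3W and spontaneous tumors limma also called 0 long runs (0.00786% of all runs, smallest adjusted p of a long run 0.339). At an unadjusted p under 0.05 there were 34 (18.9%, against 10.6%), with 11 higher in IR-3W (6.11%, against 6.47%) and 23 lower (12.8%, against 4.14%). The comparisons with IR-7W and with spontaneous tumors share the IR-3W arrays, so their counts are not independent. The largest of the named differences was at chr10:50148658-50153464, with means of 0.004 in IR-3W and 0.65 in spontaneous tumors (SE 0.20, limma adjusted p = 0.356). At chr19:20939883-20944756 (39 probes) the means were 0.79 and 1.25, and at chr6:39496159-39498658 (21 probes) -0.54 and -0.27. Runs higher in IR-3W were the chromosome 20 run described above, chr8:113882585-113884959 with 1.60 against 1.15, and chr6:111007218-111010321 (20 probes) with 0.88 against 0.29. In the last of these IR-3W tumor 1 was at 2.18, above all 3 glands, and the difference fell from 0.59 to 0.37 without it.

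IR-7W and spontaneous tumors gave the fewest differences. Limma called 0 long runs (smallest adjusted p 0.895), and 3 had an unadjusted p under 0.05 (1.67%, against 3.8% of all runs). These were chr10:84714039-84716413 (20 probes, means 0.36 in IR-7W and 0.82 in spontaneous tumors), chr1:170752806-170754910 (21 probes, 0.58 and 0.35) and chr2:186529675-186533959 (-0.42 and -0.21). The last difference, -0.21, was -0.13 without IR-7W tumor 6. The next in order of p, at chr16:7970068-7972816, chr20:8199117-8202405 and chr7:54655226-54657086, differed by 0.29, 0.11 and -0.12. A p that misses the threshold in groups of 7 does not show that these tumors are alike.

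Single tumors differed widely at some long runs. The largest SD among the 21 tumors was 0.93, at chr9:74761784-74763313 (20 probes), where tumors ranged from 0.64 to 4.82 and glands from 1.09 to 2.28. Here all 20 probes were above 1 in the mean of each group. The chromosome 5 run at chr5:44727550-44730591 (23 probes) had an SD of 0.71 and a different pattern. Glands were at -0.57, -0.42 and -0.34, the IR-3W tumors ranged from -0.56 to 0.09, the IR-7W tumors from -0.38 to 1.13 and the spontaneous tumors from -0.46 to 1.96. Its tumors therefore reached from gland-like levels to clear enrichment within 2 of the groups. The difference from glands was 0.71 (SE 0.40, limma adjusted p = 0.206), and 0.45 on the scan day of the glands. The median SD over the long runs was 0.21 among tumors and 0.12 among glands.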

How the data were processed

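The authors' scanner files hold spot intensity values made with Agilent Feature Extraction 10.7.3.1 (background subtracted, spatially detrended, linear dye normalization), and the deposited series matrix holds log2 ratios that served as an alternative. The log10 ratios in the scanner files were also made by the authors with this software and served to check the direction of the ratio. Positions are those of the files, on rn4. The log2 ratio of the processed intensities was centered on the array's median, with outlier spots (0 to 35 per array) left out. Run means were fitted with limma 3.58.1 in R 4.3.3, using only the arrays compared, with Benjamini-Hochberg adjustment over 12724 runs. Depth has no counterpart here, and the number of arrays limits precision. The step was tested on simulated independent values with planted changes of 4 SD and no batch effect. Set up as tumors against glands, it recovered 197 of 200 changes with 13 false calls. This cannot show how the fit behaves where the glands share a scan day.

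Groups came from the labels. P-values cover the spread between these tissues, and 4 tumors shared a rat with another. The regions, lists and tests were chosen with earlier results of these data known. Named runs were the 8 largest called differences per direction against glands, the 3 smallest p per direction between tumor groups, the 5 with most probes, the 5 highest and 3 lowest in glands, the 5 with the largest tumor SD, and the 2 extremes of edge minus centre per direction. Runs on chromosome X were left out. The alternatives were other scales, centring, background correction, probe filters, run definitions, blocks, tests and arrays left out. Dates of scans were used only as batches.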

Additional observations from a re-analysis of the deposited data

Results flagged for a closer look

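Single tumors stood apart from the other 6 of their group (Dixon's 95% limit for 7 values) in 14 of 153 tests over named runs and member means (9.15%). Chance flags about 1 in 20 groups, but that rate does not hold here, because some of the runs were named for their tumor values and all share the same arrays. Of these, 9 were IR-3W tumor 1. Its run levels were 0.472 on chromosome 20 from 46260737 (group median 0.0135), 2.18 on chromosome 6 from 111007218 (0.676), -0.93 on chromosome 7 from 54655226 (-0.715), 3.95 on chromosome 12 from 46721844 (2.3), 6.51 on chromosome 6 from 132294171 (4.05), 6.11 on chromosome 5 from 58917818 (3.92), 6.04 on chromosome 9 from 32921179 (3.78), 4.83 on chromosome 19 from 35083781 (2.96) and 0.726 on chromosome 16 from 69406502 (0.271). It was the highest of its group in 8 of these 9 runs and the lowest in the other.

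The other 5 were spread over both remaining groups. IR-7W tumor 6 was low on chromosome 19 from 20939883 (0.219, group median 1.08), and IR-7W tumor 1 was high on chromosome 6 from 39496159 (0.221, group median -0.277). Spontaneous tumor 1 was high on chromosome 5 from 135430122 (2.31, group median 1.2). Spontaneous tumor 3, which shared the scan day of the glands, was high on chromosome 8 from 65482469 (-0.362, group median -0.681) and on chromosome 10 from 109652173 (-0.168, group median -0.438).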

How the results depend on the processing

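With scan day as a block, the comparison with normal glands rests on 1 tumor beside the 3 glands (median difference 0.15 over the long runs). With slide as a block it rests on the same tumor beside normal gland 2 alone (0.23). Without a block, 69 long runs were called against normal glands (57 higher, 12 lower, 82.6% higher). They were 45 with normexp (27 higher, 18 lower, 60%), 93 with the rebuilt LogOdds (93 higher, 0 lower, 100%) and 34 by the methods' test at its p threshold alone (0.001, an equal variance test of run means on the log2 scale, without the minimum LogOdds difference that the study also set for single probes). With 30 or more probes 12 of 29 were called (11 higher, 1 lower), and with a gap of 500 bp 49 of 143 (8 lower). Without dim probes (Cy3 not above background on at least 1 array) 21 were lower (71.6% higher), and with the median over probes 72.6% were higher. Same-numbered samples were not paired in the labels, though some shared a scan day, as IR-3W tumor 2 and IR-7W tumor 2 did. The correlation of deviations of same-numbered tumors was -0.398 to 0.407, above 0.1 in 7 of 21 pairs. The replicate number as a block gave 57 called long runs (50 higher, 7 lower). Leaving out 1 array at a time gave 25 to 76 long runs (22 to 63 higher, 2 to 13 lower), 486 to 1323 member probes and 12 to 57 edge contrasts, with the lowest of these counts without normal gland 2 or 3. The share higher was 80.6% to 93.9%, highest without normal gland 3.

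The 1218 called member probes became 0 with slide, 31 with scan day as blocks and 1847 with the rebuilt LogOdds. The rise of member probes against other autosomal probes, 0.17, was 0.098 with normexp and 0.66 on the LogOdds scale. Between tumor groups the methods' test at a p threshold of 0.005 alone, which the study set for age at irradiation, called 7 long runs for IR-7W against IR-3W and 3 for IR-3W against spontaneous tumors, and the LogOdds called 4 and 0. After Benjamini-Hochberg adjustment the methods' test called 0 in both.

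The rebuilt LogOdds turned the sign of 6 decreases, to 0.31 (chromosome 16), 0.36 (10), 0.52 (8), 0.44 (7), 0.69 (13) and 0.64 (17), and of IR-7W against spontaneous tumors at chromosome 2 (0.029) and 7 (0.53). Slide as a block turned IR-3W against spontaneous tumors at chromosome 20 from 46260737 (-0.025) and chromosome 8 from 113882585 (-0.030). The causes were not tested.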
